A study of Penicillium oxalicum with 6 samples.

Results

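Described here are 45 of the 9284 genes listed for the filamentous fungus Penicillium oxalicum, the abundant transcripts whose level was 2-fold or more and under 8-fold higher without the gene POX00158. Genes were ranked by their mean FPKM (reads per kilobase of gene length and 1000000 reads) over the 3 MuPOX00158 libraries. Of the first 300, those were kept whose mean CPM (reads per 1000000 reads of the library) was 2 or more and under 8 times that of Ku70. Genes in 9 stretches of identifier numbers were left out, which removed 12 of the 57 genes with such a ratio. The members were thus chosen by their FPKM in MuPOX00158 and by their CPM ratio. Their values, and the calls of a test across all genes, are given as a description and support nothing here.

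MuPOX00158 is a mutant of POX00158, which the series describes as a phosphokinase gene, and Ku70 is a strain labelled as a Ku70 mutant. The labels do not say whether MuPOX00158 also lacks Ku70 or how many transformants were used. For both strains, about 1 g of mycelium was incubated for 24 h in a liquid medium holding 1% Avicel (purified crystalline cellulose), and each strain has 3 libraries. Whether those 3 stem from independent cultures is not stated in the labels, so spreads and p-values measure these libraries and may be technical.

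Penicillium oxalicum lives on plant litter and secretes enzymes that break down cellulose and xylan. Protein kinases pass signals on by adding phosphate groups to other proteins, and kinase cascades take part in how fungi adjust growth and secretion to their carbon source. Ku70 belongs to the machinery that rejoins broken DNA ends, and its loss makes targeted gene deletion easier in fungi. The most abundant transcripts of a growing fungus usually include those of ribosomal proteins, central metabolism, cell wall and secreted proteins. None of the members can be assigned to such a class here, because the deposited tables pair no identifier with a name and none of the identifiers matched the RefSeq gene table of this species. They are therefore described by identifier, level and behaviour between libraries.

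The libraries held 2983815 to 3259601 expected counts over 8677 to 8750 listed genes. POX00158 had 0.99, 1.82 and 2.19 FPKM in MuPOX00158 replicates 1, 2 and 3, against 257, 131 and 180 FPKM in Ku70 replicates 1, 2 and 3, as the strain labels call for. Throughout, values per library are given in the order of replicates 1, 2 and 3. The replicate numbers follow the order of deposition and match the letters F, S and T at the end of the sample titles.

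Together the 45 genes took 5.25, 3.86 and 4.91% of all reads in the MuPOX00158 libraries and 1.42, 1.53 and 1.45% in the Ku70 libraries. This was 4.67 ± 0.726% in MuPOX00158 and 1.46 ± 0.056% in Ku70 (SD, n = 3 each), with MuPOX00158 replicate 2 the lowest of its strain. Mean FPKM of a member ran from 556 to 5943 in MuPOX00158, with a median of 1185, and from 85.0 to 1763 in Ku70, with a median of 374. The genes were not silent in Ku70: 16 of them also stood among the first 300 genes by FPKM there, and their median rank in Ku70 was 415. The lowest ranked in Ku70 was POX00089, at place 1899. Most ratios lay near the lower limit. The median CPM ratio was 2.62, with 28 members under 3, 9 from 3 to under 5 and 8 at 5 or more. Among the other genes of the first 300 outside the left-out stretches, 175 had a ratio between 0.5 and 2, 23 had one of 8 or more, and 25 had one of 0.5 or less.

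**Figure D1:**
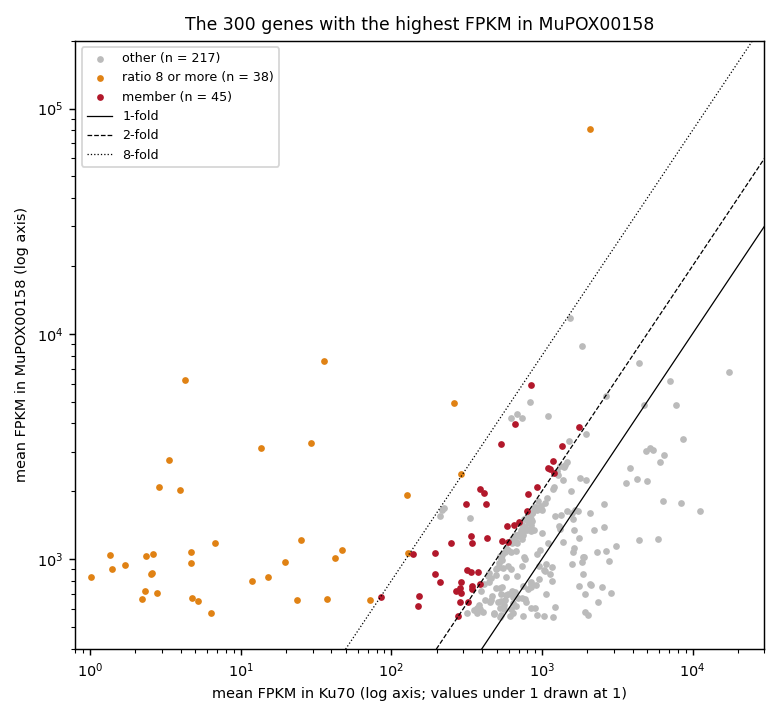
Mean FPKM over 3 libraries in MuPOX00158 (vertical) and Ku70 (horizontal), both on log axes, for the 300 genes with the highest FPKM in MuPOX00158. The 45 members (red), chosen on CPM, lie between the 2-fold and 8-fold lines or at them, most of them close to the 2-fold line. Grey points are the other genes, including those of the left-out stretches, and orange points are 38 genes with a CPM ratio of 8 or more, stretches included.

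Both limits cut through neighbouring values. The smallest ratios inside were 2.01 for POX00815, POX09243, POX08810 and POX02618 and 2.02 for POX04527. Just outside stood POX04408, with a ratio of 1.99, and POX08199, with 1.98. POX04408 had 5707, 4013 and 6136 FPKM in MuPOX00158, against 2352, 2342 and 3287 FPKM in Ku70, so it was more abundant than all members but POX06308. At the upper limit POX00089 (ratio 7.99) and POX00120 (7.53) were inside, and POX05482 (8.20) and POX08048 (9.20) were outside. By abundance, POX08951 and POX08810 were the last inside, with 619 and 556 FPKM on average in MuPOX00158. Of the genes with such a ratio, POX03300 and POX03019 were the first past place 300, at places 301 and 309, with 551 and 529 FPKM.

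In 44 of the 45 genes every MuPOX00158 library lay above every Ku70 library, a pattern that 30.5% of all tested genes and 64.0% of the first 300 also showed. The exception was POX07383. With edgeR's quasi-likelihood test across 7757 genes, 41 of the 45 passed as higher in MuPOX00158 (adjusted p below 0.05), where 18.6% of all tested genes and 39.0% of the first 300 did. The ratio chose the members, and the first 300, picked by their level in MuPOX00158, include them, so nothing is read from these counts. Log2 fold changes in this test, MuPOX00158 over Ku70, ran from 0.91 to 2.93 with a median of 1.30, against a median of 0.72 over the first 300 and of 0.00 over all tested genes. The 4 genes that did not pass were POX02618 (adjusted p = 0.057), POX02306 (0.0562), POX09204 (0.0999) and POX07383 (0.221) in edgeR. What the letters mark is not stated in the labels. Deviations from the strain means correlated weakly between libraries with the same letter (r of 0.15, 0.219 and 0.159 over tested genes). On that weak basis, drawn from these same data, the letters were taken as pairs for the pair ratios and a replicate block only. The test above, with its fold changes and SEs, was unpaired, and the pairing is not established. With the letter as a replicate block all 45 passed, where 18.7% of all tested genes passed as higher. The 4 genes then had edgeR adjusted p of 0.0467, 0.0297, 0.0257 and 0.0252. Nothing is read from this count either. Within letter pairs the median ratio of the members was 3.48 for replicates 1, 2.19 for replicates 2 and 2.80 for replicates 3. A ratio of 2 or more was reached by 39, 27 and 40 members in these pairs, and by 22 members in all 3 pairs.

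**Figure D2:**
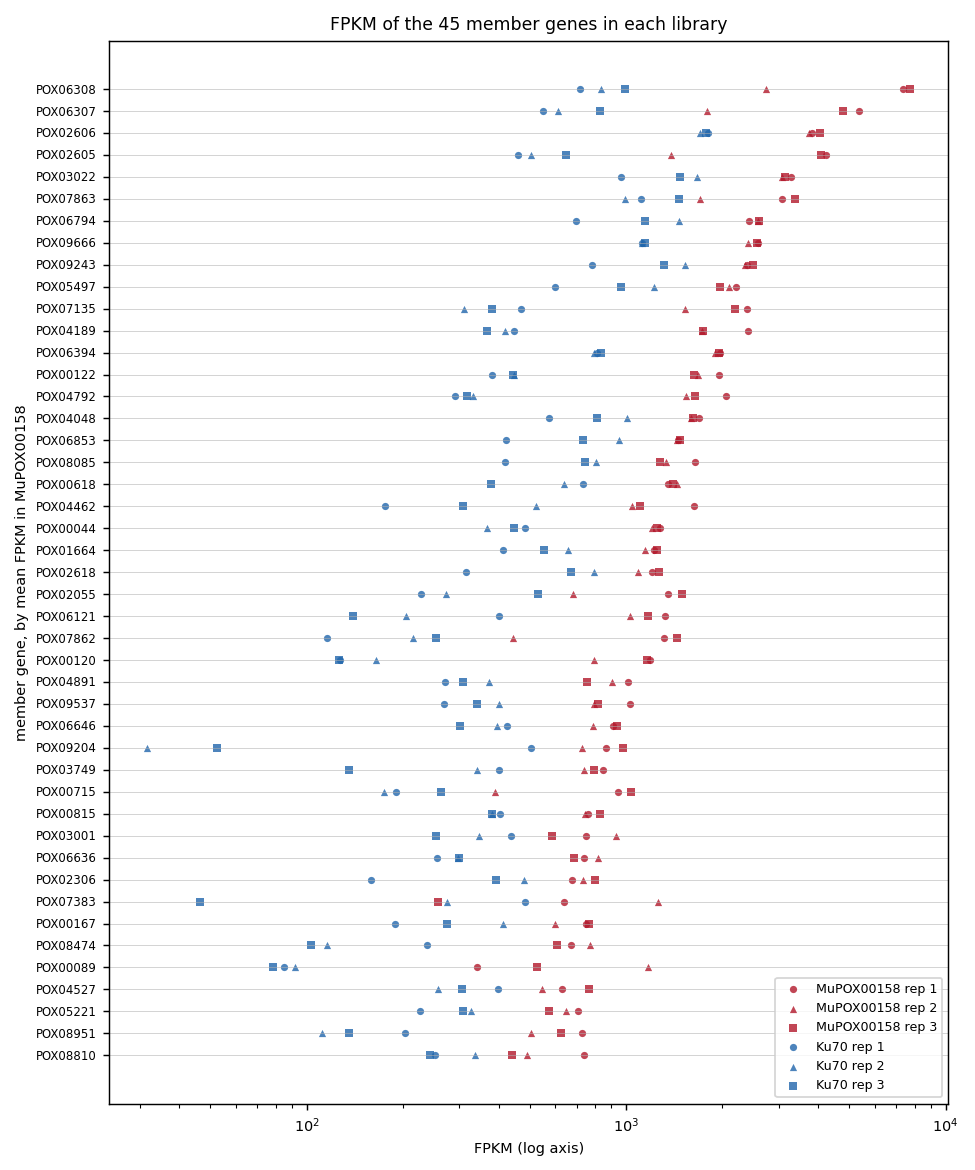
FPKM (log axis) of each of the 45 members in the 3 MuPOX00158 libraries (red) and the 3 Ku70 libraries (blue), ordered by mean FPKM in MuPOX00158. Marker shapes give the replicate. The strains overlap in POX07383 alone, and Ku70 values of POX09204 span 31.7 to 503 FPKM.

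The members differed in how they varied between the libraries of a strain. This spread is not independent of the rule, since a low or high library enters the means behind the ratio. The 6 groups below were formed after these values were seen and are descriptions. In the first group, of 6 genes, MuPOX00158 replicate 2 held less than 0.5 times the CPM of each of the other MuPOX00158 libraries. This group holds 3 of the 4 members with the highest FPKM. POX06308 had 7333, 2746 and 7749 FPKM in MuPOX00158, against 718, 836 and 994 FPKM in Ku70. POX06307, the adjoining identifier, had 5363, 1796 and 4758 FPKM in MuPOX00158, against 548, 612 and 829 FPKM in Ku70. POX02605 had 4228, 1380 and 4080 FPKM in MuPOX00158, against 457, 503 and 648 FPKM in Ku70. In all 3, MuPOX00158 replicate 2 stood far below its 2 companions and still above every Ku70 library. Their log2 fold changes were 2.72 (SE 0.41), 2.51 (SE 0.41) and 2.51 (SE 0.43).

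The other 3 genes of this group were POX07862, POX02055 and POX00715. POX07862 had 1314, 442 and 1445 FPKM in MuPOX00158, against 116, 215 and 254 FPKM in Ku70. POX02055 had 1350, 684 and 1496 FPKM in MuPOX00158, against 228, 274 and 530 FPKM in Ku70. POX00715 had 946, 388 and 1035 FPKM in MuPOX00158, against 191, 174 and 263 FPKM in Ku70. A low MuPOX00158 replicate 2 is what defined the group. In all 6 genes Ku70 replicate 3 was the highest of its strain. Over the 6 genes, MuPOX00158 replicate 2 held 0.31 to 0.48 times the mean CPM of replicates 1 and 3. Their summed share of the reads was 1.213, 0.436 and 1.199% in MuPOX00158, against 0.141, 0.155 and 0.208% in Ku70. The same dip was seen in 1 of the 175 genes with a ratio between 0.5 and 2 and in none of the 23 genes with a ratio of 8 or more. It was also seen in 2 of 73 abundant Ku70 genes (among the first 300 in Ku70, same stretches left out) that were 2- to 8-fold lower in MuPOX00158. With a limit of 0.6 times, 7 members, 2 of the 175 genes and 1 of the 23 met it. The median log2 ratio of MuPOX00158 replicate 2 to its strain mean was -0.103 in the members and -0.254 in the 23 genes. It was -0.018 in the 175 genes and 0.186 in the 73. POX07863, which adjoins POX07862, came close to this group, with 3072, 1709 and 3383 FPKM in MuPOX00158, against 1116, 990 and 1465 FPKM in Ku70.

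A second group of 5 genes was even in both strains, with a coefficient of variation (CV, the SD over the mean of CPM) under 10% in each. POX02606 had 3817, 3749 and 4056 FPKM in MuPOX00158, against 1800, 1706 and 1784 FPKM in Ku70 (log2 fold change 1.06, SE 0.18). POX09666 had 2584, 2408 and 2565 FPKM in MuPOX00158, against 1121, 1125 and 1145 FPKM in Ku70. POX06394 had 1967, 1892 and 1959 FPKM in MuPOX00158, against 813, 794 and 832 FPKM in Ku70. In these genes the libraries of a strain nearly coincided, and the strains were separated by a little over 2-fold. The Ku70 libraries of POX09666 and POX06394 differed by no more than counting error. POX00815 averaged 778 ± 44.6 FPKM in MuPOX00158 and 388 ± 12.8 FPKM in Ku70 (SD, n = 3 each). POX06636 averaged 746 ± 65.7 FPKM in MuPOX00158 and 285 ± 24.5 FPKM in Ku70. The ratios of the 5 genes ran from 2.01 to 2.62. POX02606 and POX02605 carry adjoining identifiers, yet POX02605 dipped in MuPOX00158 replicate 2 and POX02606 did not.

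Another group, of 9 genes, had a CV under 10% in MuPOX00158 but not in Ku70. Ku70 replicate 1 lowest and replicate 2 highest was also a condition of entry, so nothing is read from this order. POX00618, POX00044, POX06646 and POX03749 met the CV condition too, but had Ku70 replicate 1 highest and are in the last group. Among the 9 genes, POX03022 had 3284, 3081 and 3145 FPKM in MuPOX00158, against 961, 1667 and 1470 FPKM in Ku70. POX06794 had 2418, 2595 and 2613 FPKM in MuPOX00158, against 698, 1465 and 1143 FPKM in Ku70. POX09243 had 2395, 2364 and 2491 FPKM in MuPOX00158, against 781, 1529 and 1317 FPKM in Ku70. In all 3 the MuPOX00158 libraries nearly coincided, while Ku70 replicate 1 stood below the other Ku70 libraries. POX05497 had 2209, 2092 and 1964 FPKM in MuPOX00158, against 598, 1222 and 965 FPKM in Ku70. POX06853 had 1458, 1448 and 1474 FPKM in MuPOX00158, the smallest CV of all members there (0.994%, under its counting error of 1.75%), against 420, 953 and 734 FPKM in Ku70. POX02618 had 1203, 1087 and 1264 FPKM in MuPOX00158, against 316, 791 and 675 FPKM in Ku70. POX04048, POX01664 and POX02306 make up the rest.

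Ratios in this group lay between 2.01 and 2.33, with a median of 2.17, and their median CV was 4.53% in MuPOX00158 and 33.3% in Ku70. Their share of the reads was 0.574, 0.547 and 0.559% in MuPOX00158, against 0.172, 0.335 and 0.268% in Ku70. Without Ku70 replicate 1, the ratio was below 2 in 7 of the 9, at 1.71 for POX09243 and 1.74 for POX06853. POX03022 (2.04) and POX01664 (2.02) stayed above. Leaving out the lowest Ku70 library must lower the ratio, so nothing is read from these drops. The same order of Ku70 libraries was found in 18 of the 45 members (40.0%), in 95 of the 175 genes with a ratio between 0.5 and 2 (54.3%) and in 5 of the 23 genes with a ratio of 8 or more (21.7%). With a CV under 10% in MuPOX00158 as well, it was found in 10 members (22.2%), POX06636 of the second group among them. It was then found in 78 of the 175 genes (44.6%) and in 2 of the 23 (8.7%). In the 95 genes Ku70 replicate 1 held a median of 0.526 times the CPM of Ku70 replicate 2, against 0.549 times in the 18 members. When Ku70 replicate 2 was left out, 89 genes met the rule in place of 45. The 48 genes that were added had ratios of 1.70 to 1.98 over all 6 libraries. A high Ku70 replicate 2 is what leaving it out selects for, so nothing is read from its place in them.

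**Figure D3:**
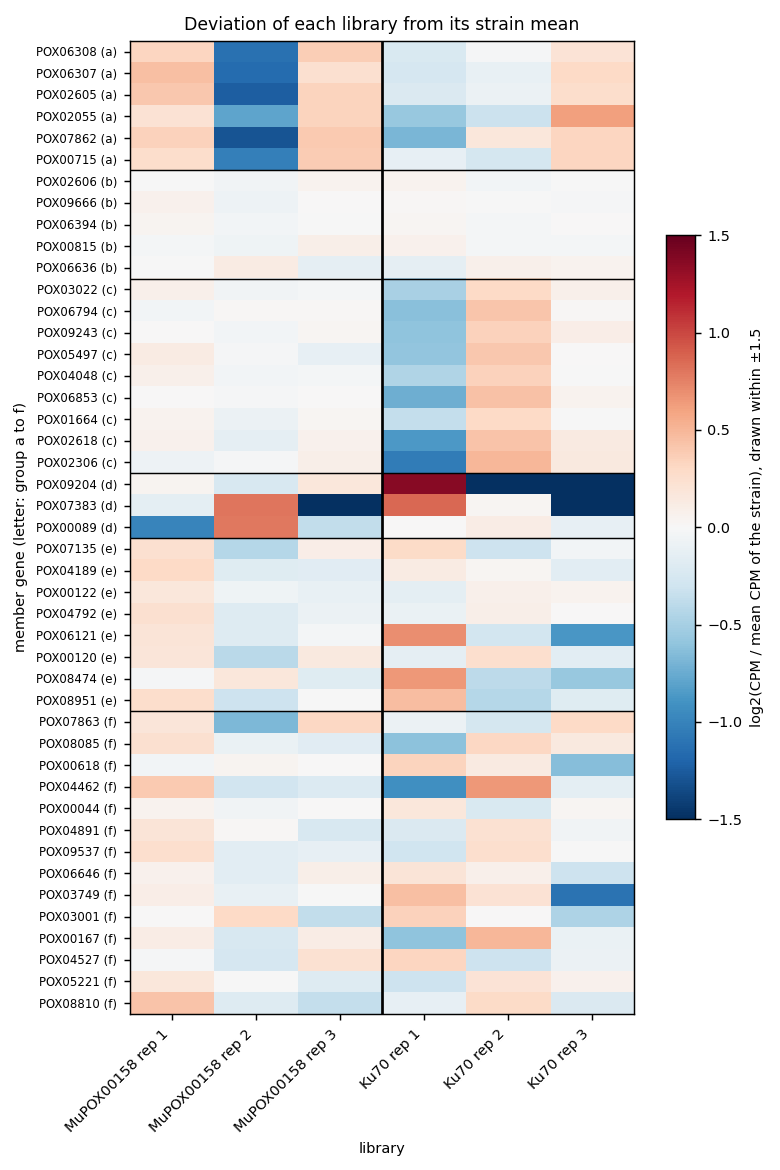
Log2 ratio of each library's CPM to the mean of its strain, for the 45 members (rows) in 3 MuPOX00158 and 3 Ku70 libraries (columns), with colours drawn within ±1.5. Rows are ordered by the 6 groups of the text: a, low in MuPOX00158 replicate 2; b, even in both strains; c, even in MuPOX00158 with Ku70 replicate 1 lowest; d, CV of 60% or more in a strain; e and f, all others with a ratio of 4 or more and under 4. Blue cells mark MuPOX00158 replicate 2 in group a and Ku70 replicate 1 in group c.

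In 3 genes the CV reached 60% or more in a strain, and 1 library set much of the mean. POX09204 had 863, 729 and 979 FPKM in MuPOX00158, against 503, 31.7 and 52.5 FPKM in Ku70. Its Ku70 counts were 522, 34 and 54 reads, so replicate 1 stood apart by far more than counting error. Its ratio was 4.33 with all libraries and 20.6 without Ku70 replicate 1, which lies beyond the 8-fold limit. POX07383 had 641, 1259 and 258 FPKM in MuPOX00158, against 483, 275 and 46.3 FPKM in Ku70. Here MuPOX00158 replicate 3 lay below 2 of the Ku70 libraries, although within letter pairs the ratios were 1.33, 4.56 and 5.63. POX00089 had 341, 1173 and 526 FPKM in MuPOX00158, against 84.7, 92.0 and 78.4 FPKM in Ku70. MuPOX00158 replicate 2 was its highest library, the opposite of the first group, and the ratio of 7.99 became 5.10 without that library and 9.97 without MuPOX00158 replicate 1.

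Of the remaining 22 genes, 8 had a ratio of 4 or more. They were POX07135, POX04189, POX00122, POX04792, POX06121, POX00120, POX08474 and POX08951. In each, every MuPOX00158 library lay above every Ku70 library, as in 30.5% of tested genes and 64.0% of the first 300. POX07135 had 2391, 1526 and 2197 FPKM in MuPOX00158, against 468, 311 and 381 FPKM in Ku70 (log2 fold change 2.33, SE 0.24). POX04189 had 2411, 1725 and 1738 FPKM in MuPOX00158, against 446, 419 and 368 FPKM in Ku70 (log2 fold change 2.17, SE 0.26). Its effective length of 2242 bases was the largest among the members. POX00122 had 1959, 1681 and 1629 FPKM in MuPOX00158, against 379, 445 and 442 FPKM in Ku70 (log2 fold change 1.98, SE 0.20). POX04792 had 2061, 1538 and 1648 FPKM in MuPOX00158, against 291, 332 and 318 FPKM in Ku70 (log2 fold change 2.40, SE 0.23). POX00120 had 1184, 792 and 1164 FPKM in MuPOX00158, against 127, 165 and 126 FPKM in Ku70 (log2 fold change 2.82, SE 0.26). It was the most widely separated member, its lowest MuPOX00158 library holding 4.79 times the CPM of its highest Ku70 library.

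The other 3 genes of this kind were less even in Ku70, with replicate 1 the highest. POX06121 had 1322, 1030 and 1167 FPKM in MuPOX00158, against 399, 205 and 139 FPKM in Ku70. POX08474 had 672, 773 and 606 FPKM in MuPOX00158, against 238, 116 and 103 FPKM in Ku70. POX08951 had 727, 503 and 627 FPKM in MuPOX00158, against 204, 112 and 136 FPKM in Ku70. Across all 45 members, the lowest MuPOX00158 library held a median of 1.84 times the CPM of the highest Ku70 library, and 2 times or more in 18 of them.

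The last 14 genes had ratios from 2.01 to 3.77. Every MuPOX00158 library lay above every Ku70 library in 64.0% of the first 300, and in all 14 of these genes. They were POX07863, POX08085, POX00618, POX04462, POX00044, POX04891, POX09537, POX06646, POX03749, POX03001, POX00167, POX04527, POX05221 and POX08810. POX04462 had the largest ratio of these, with 1633, 1040 and 1102 FPKM in MuPOX00158, against 176, 523 and 309 FPKM in Ku70. POX00044 averaged 1244 ± 35.5 FPKM in MuPOX00158 and 431 ± 59.0 FPKM in Ku70 (SD, n = 3 each). In POX00618 and POX03749 it was Ku70 replicate 3 that stood low. POX00618 had 1352, 1446 and 1404 FPKM in MuPOX00158, against 734, 639 and 378 FPKM in Ku70. POX03749 had 847, 737 and 793 FPKM in MuPOX00158, against 400, 341 and 136 FPKM in Ku70. The low Ku70 library was therefore not the same in all members.

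**Figure D4:**
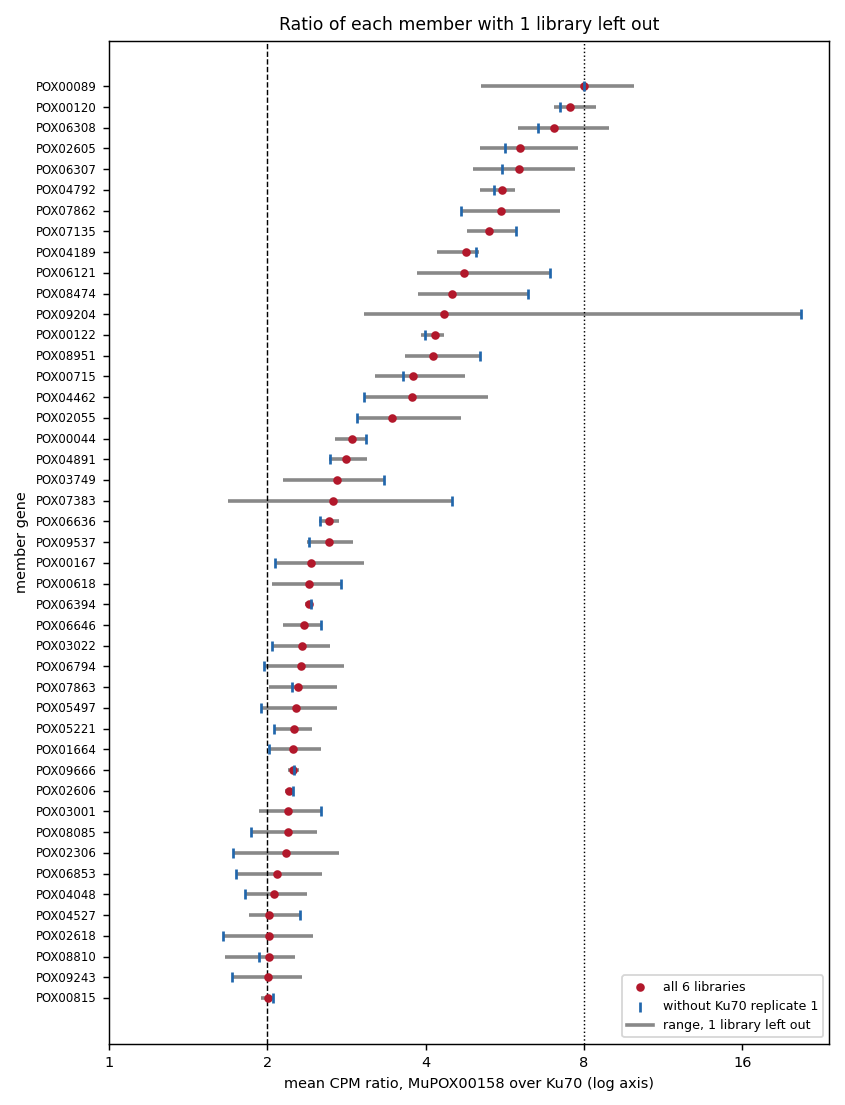
Mean CPM ratio of MuPOX00158 over Ku70 (log axis) for each member with all 6 libraries (red points), the range when 1 library is left out (grey bars) and the value without Ku70 replicate 1 (blue ticks), with dashed and dotted lines at 2 and 8. POX09204 reaches 20.6 without Ku70 replicate 1, and 28 of the 45 members met the rule whichever library was left out.

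Which members met the rule depended on single libraries at its edges. In total, 28 of the 45 genes met it whichever library was left out, and 17 left it at least once. Leaving out Ku70 replicate 1 removed the most, 10 genes, of which 9 came to lie below 2 and POX09204 passed 8. Leaving out MuPOX00158 replicate 2 carried POX06308 to a ratio of 8.92 and POX00120 to 8.45. When the ratio was taken from TMM-scaled CPM (TMM is a scaling that evens out the bulk of the genes), 38 of the 45 stayed.

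The low library of a strain was set against that of other abundant genes. In MuPOX00158, replicate 2 was the lowest library in 31 of 45 members (68.9%), in 64 of 175 genes with a ratio between 0.5 and 2 (36.6%) and in 20 of 23 genes with a ratio of 8 or more (87.0%). Among the 73 abundant Ku70 genes that were 2- to 8-fold lower in MuPOX00158, replicate 2 was the lowest MuPOX00158 library in 10 (13.7%) and the highest in 52. The median CV of the members was 13.6% in MuPOX00158 and 22.4% in Ku70. It was 6.28% in MuPOX00158 and 24.6% in Ku70 for the 175 genes, and 19.2% in MuPOX00158 and 20.6% in Ku70 for the 73 genes. Genes share libraries and are no replicates, so these shares and medians are given without a test.

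**Figure D5:**
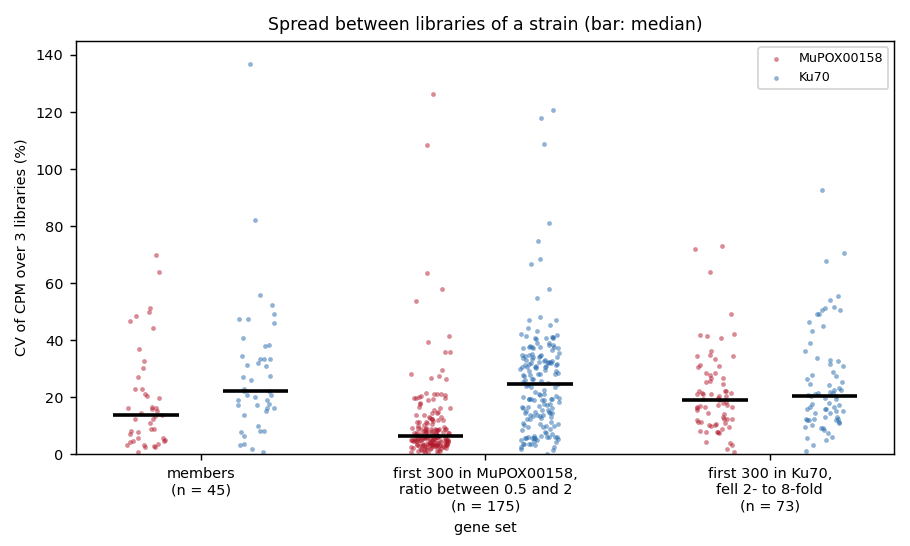
CV of CPM over the 3 libraries of MuPOX00158 (red) and of Ku70 (blue), in percent, for the 45 members, for 175 of the first 300 genes in MuPOX00158 with a ratio between 0.5 and 2, and for 73 of the first 300 genes in Ku70 that were 2- to 8-fold lower in MuPOX00158. Each point is a gene and black bars are medians, which for the members are 13.6% in MuPOX00158 and 22.4% in Ku70.

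Members varied widely in effective length, which need not equal the length of the gene. The effective length, obtained from the deposited count and FPKM of a gene, had a median of 457 bases over the members, from 144 for POX07862 to 2242 for POX04189. It was under 500 bases in 25 of the 45 (55.6%). The 175 genes with a ratio between 0.5 and 2, ranked by the same FPKM, had a median of 604 bases and 40.0% under 500. The 23 genes with a ratio of 8 or more had a median of 621 bases and 47.8% under 500. The 73 abundant Ku70 genes had a median of 999 bases. By this measure the group of 9 genes with a low Ku70 replicate 1 was the shortest. Its median was 285 bases, with 8 of 9 under 500. The 8 further genes with a ratio of 4 or more had a median of 940 bases. Of the 175 genes, 78 had the same order of Ku70 libraries and a CV under 10% in MuPOX00158. Their median was 524 bases, with 36 under 500. The 10 members that met this same condition, POX06636 included, had a median of 324 bases, with 8 under 500. Ranking by FPKM divides by length, so the share of short genes is in part set by the rule, and lengths derived in this way are least exact for the shortest genes. No member had a fractional expected count, the sign of reads shared with a similar sequence, and only 32 of the 9284 listed genes had one in any library.

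Along the identifier numbers, 8 of the 45 members lay within 3 of another member (17.8%), in 4 pairs. Within their own sets this held for 21 of the 175 genes, 17 of the 73 (23.3%) and none of the 23. The members' pairs were POX06307 and POX06308, POX02605 and POX02606, POX07862 and POX07863, and POX00120 and POX00122. POX00121, between the last pair, had a ratio of 2.66 and averaged 265 FPKM in MuPOX00158 and 99.5 FPKM in Ku70, below the abundance limit. On both sides of the POX06307 pair the next identifiers were also higher, POX06306 with a ratio of 2.45 and POX06309 with 2.08. Of the 83 other listed genes directly next to a member, 72 were tested in edgeR, of which 20 passed as higher (27.8%), 8 passed as lower and 44 did not pass, beside 18.6% higher and 18.6% lower over all tested genes. Neighbours could also go the opposite way. POX05220, next to POX05221, averaged 8.93 FPKM in MuPOX00158 and 78.7 FPKM in Ku70 (log2 fold change -3.23), and both neighbours of POX04792 were lower in MuPOX00158 (log2 fold changes -0.92 and -0.98). Adjoining numbers are taken as they stand in the files, and positions in the genome were not used here.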

How the data were processed

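RNA-seq tables of 3 MuPOX00158 and 3 Ku70 libraries were used. Per the file headers, the authors deposited an expected count (estimated reads per gene) and an FPKM value for each gene. The submitters' processing notes name DESeq2, BWA 0.7.10-r789, RSEM 1.2.12 and Bowtie2 2.1.0 and give no roles. For the genome build, the annotation and the strand setting, nothing is given in the sources used here. Tables list no gene at 0, and a missing gene was taken as 0.

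CPM used plain library totals. Effective length is the expected count over FPKM and library total, as a median over libraries with at least 10 reads. Expected counts were rounded and tested with edgeR 4.0.16 (filterByExpr with a minimum count of 10 and a minimum total of 15, TMM, quasi-likelihood, Benjamini-Hochberg at 0.05) in R 4.3.3, after the code was tested on simulated data. The SE is the log2 fold change over the square root of F. The rule was read as ranking all genes first and applying the ratio second. Mean counts per strain give a counting error of 0.837 to 10.7% per member. The CV between libraries did not exceed it for 1 member in MuPOX00158 and for 2 in Ku70. Titles share letters between strains. Deviations from the strain means, over tested genes, correlated at 0.15, 0.219 and 0.159 within letters and at -0.177 to 0.0336 between letters. Deviations from a strain mean cancel out within the strain, so positive values within letters force negative ones on average between them. The contrast is therefore no support for pairs, which were assumed for the pair ratios and the replicate block only. The main test was unpaired. Alternatives were other scalings, filters, tools (DESeq2 1.42.0, limma 3.58.1 on log2 FPKM with a pseudocount of 1 or 0.1, genes with FPKM of at least 1 in 3 libraries), a replicate block and each library left out. The members, the rule for the genes named and the alternatives were chosen with earlier results of these data known. That rule took the members with the highest FPKM, largest and smallest ratios, largest CVs, overlapping strains, lost calls, neighbouring identifiers, extreme lengths and unstable membership, and the genes just outside each limit. The remaining members and neighbours were named after their values were seen.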

Additional observations from a re-analysis of the deposited data

How the results depend on the processing

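The rule gave 39 to 57 genes under other scalings, FPKM ratios, medians, 400 ranked genes and with no stretch left out (a setting added after seeing the data), and 31 with 200 ranked genes, against 45. Leaving out 1 library gave 43 to 89, the highest without Ku70 replicate 2. Read the other way, as the first 300 by FPKM among all genes with such a ratio, the rule gave 300 genes down to 45.2 FPKM. The median log2 fold change of 1.30 was 1.39 with plain library totals, 1.38 with limma on log2(FPKM + 1), 1.39 with log2(FPKM + 0.1), and 1.15 to 1.40 with 1 library left out. Plain totals shifted the median of all genes by 0.077, and gave 1625 higher and 1288 lower, against 1442 higher and 1446 lower with TMM. The members' share was 6.83% of summed FPKM in MuPOX00158 and 2.52% in Ku70. It was 4.38 to 5.08% of reads in MuPOX00158 and 1.43 to 1.49% in Ku70 with 1 library left out. Calls numbered 41 to 45 under other settings and 30 to 44 with 1 library left out, and 30 genes were called in every setting. The share of all tested genes called higher moved too, from 18.6% to 12.8% without MuPOX00158 replicate 1 or 3, 13.4% without Ku70 replicate 3 and 20.6% without Ku70 replicate 1. Of 630 comparisons of a member with an alternative, 577 kept their call, 32 lost it, 21 gained it and none reversed. The losses all came with fewer libraries. The block changed no call other than the 4 named.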
